A study of Mus musculus with 6 samples.

Results

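Genes of glycolysis and of the cellular response to low oxygen were compared between parental ID8, a mouse ovarian epithelial cancer line of C57BL/6 origin, and its in vivo-selected derivative ID8-M. The set was chosen by gene symbol and listed 42 genes: 8 subunits and regulators of hypoxia-inducible factor (HIF), 10 HIF targets outside glycolysis, and 24 genes of glucose uptake, glycolysis and lactate export. Probes for 39 of these symbols lay on the arrays, out of 19057 genes in all. The annotation used lists no probe for Hk2, Gpi1 and Eno1, whose expression was not analysed here. Per the labels, ID8-M arose from parental cells given intraperitoneally to female C57BL/6 mice 8 weeks old. Ascites cells were harvested after 12 weeks, clones were picked after 4 days of culture, and the picked cells were passaged. The labels do not give the number of clones or mice behind ID8-M. The labels name no engineered allele and no hypoxia treatment for either line, and both were grown in the same high-glucose medium with 4% serum, antibiotics, insulin, transferrin and selenite. RNA of 3 samples per line was hybridised to bead arrays. The labels do not say whether these came from separate cultures, so p-values measure the spread between these samples, which may be technical.

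HIF is a dimer of an alpha subunit, encoded by Hif1a or Epas1, and a stable partner encoded by Arnt. When oxygen is present, the prolyl hydroxylases Egln1, Egln2 and Egln3 mark the alpha subunit, the product of Vhl sends it to degradation, and Hif1an blocks its activity, so alpha subunits are controlled mainly as proteins. In low oxygen the dimer binds core motifs near its targets and raises glucose transporters, glycolytic enzymes and genes of pH control. Tumour cells often run glycolysis at high rates even in oxygen, through HIF or other regulators.

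Between 16386 and 17186 probes were detected per array (detection p under 0.05), and member probes were read from 17 to 127 beads per array. All 6 samples lay on 1 chip, parental at positions A to C and ID8-M at D to F, so chip position and line cannot be told apart. Cytokeratin genes of the ovarian surface type, Krt7, Krt8, Krt18 and Krt19, were detected on all arrays. Of 7 such epithelial and mesothelial markers tested, 6 were called higher in ID8-M, beside 15.4% of all tested genes. Among the 6, Lrrn4 was detected on no parental array, so it was tested only through ID8-M and its call supports nothing. The summed linear signal of the 7 markers ran from 21859 to 23333 in parental arrays and from 36782 to 39710 in ID8-M arrays. Of 7 macrophage markers with a probe, 6 (Adgre1, Csf1r, Lyz2, Itgam, Ptprc and Tyrobp) were detected on no array of either line, and the summed signal ran from 602 to 668 in parental and from 493 to 535 in ID8-M. The remaining one, Cd14, was called lower in ID8-M. Of 5 endothelial markers only Pecam1 was tested, and it was called higher in ID8-M, where it alone was detected on all 3 arrays. Pecam1 was detected on no parental array, so it was tested only through ID8-M and its call supports nothing. Cdh5 and Emcn were not detected. The summed endothelial signal ran from 155 to 162 in parental and from 186 to 200 in ID8-M. Among 5 fibroblast markers, Col1a2, Col3a1 and Pdgfra were not detected, Dcn was called higher in ID8-M and Col1a1 was not called, with summed signals of 4558 to 4896 in parental and 7045 to 7251 in ID8-M. Lymphocyte and erythroid lists held 4 and 2 markers with a probe and none was called. Of these, Cd3e was detected on all 3 arrays of each line, and a Cd4 probe on 1 parental array. The part of these markers in the results was not tested.

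The promoters of the called members with the smallest adjusted p are shown because HIF binds the core motifs ACGTG and GCGTG. Windows run from 250 bases before to 50 bases after an annotated start and come from RefSeq, build GRCm38.p6. Letters are written 5′ to 3′ on the gene's strand, and capitals mark a match to either motif on either strand.
Eno2, chr6:124769624-124769923, minus strand, 0 matches: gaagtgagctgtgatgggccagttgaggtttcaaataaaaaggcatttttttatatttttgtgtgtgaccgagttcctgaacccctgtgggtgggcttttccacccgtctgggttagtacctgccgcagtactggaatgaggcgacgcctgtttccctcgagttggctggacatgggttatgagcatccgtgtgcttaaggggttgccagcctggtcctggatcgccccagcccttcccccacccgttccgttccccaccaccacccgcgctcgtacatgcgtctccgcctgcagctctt
Pdk1, chr2:71872974-71873273, plus strand, 2 matches: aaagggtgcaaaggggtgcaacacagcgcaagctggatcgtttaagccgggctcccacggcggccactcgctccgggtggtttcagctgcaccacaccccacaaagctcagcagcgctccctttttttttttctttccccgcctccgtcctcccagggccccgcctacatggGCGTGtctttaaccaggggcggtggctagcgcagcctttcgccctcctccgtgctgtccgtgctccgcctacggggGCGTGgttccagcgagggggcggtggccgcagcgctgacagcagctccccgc
Car9, chr4:43506776-43507075, plus strand, 1 match: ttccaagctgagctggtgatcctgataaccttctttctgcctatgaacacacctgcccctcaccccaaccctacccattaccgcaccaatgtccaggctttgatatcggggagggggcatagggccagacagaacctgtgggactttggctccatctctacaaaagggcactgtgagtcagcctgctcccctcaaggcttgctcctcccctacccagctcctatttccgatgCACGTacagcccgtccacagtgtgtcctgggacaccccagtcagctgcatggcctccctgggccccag
Pfkm, chr15:98108221-98108520, plus strand, 2 matches: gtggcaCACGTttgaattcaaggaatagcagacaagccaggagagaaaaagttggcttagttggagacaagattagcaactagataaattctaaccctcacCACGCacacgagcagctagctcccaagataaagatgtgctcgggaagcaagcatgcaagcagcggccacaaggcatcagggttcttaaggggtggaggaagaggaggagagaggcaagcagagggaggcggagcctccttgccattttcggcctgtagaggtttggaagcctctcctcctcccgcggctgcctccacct
Egln1, chr8:124949205-124949504, minus strand, 2 matches: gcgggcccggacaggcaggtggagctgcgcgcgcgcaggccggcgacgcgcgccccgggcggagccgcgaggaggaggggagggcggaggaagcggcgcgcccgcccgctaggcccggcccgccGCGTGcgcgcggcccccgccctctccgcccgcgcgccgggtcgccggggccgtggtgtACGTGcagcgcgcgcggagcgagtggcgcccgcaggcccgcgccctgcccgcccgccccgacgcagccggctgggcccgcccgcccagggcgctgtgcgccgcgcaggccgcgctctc

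Pdk1 has 1 further annotated window without a match, and Pfkm has 3 others, 2 of them with matches. The Pfkm window above was chosen because it holds both motifs. Ndrg1 also belongs to this group by its adjusted p. At least 1 of the motifs was present in windows of 32 of the 38 listed genes with a window, Hk2, Gpi1 and Eno1 included, which is 84.2% of them, against 46.7% of all 27025 genes with a window. Per window the shares were 75.9% of 54 and 43.8% of 32851. Both motifs contain the dinucleotide CG, of which member windows held a median of 20 and all windows a median of 7. A match describes letters only, and binding was not measured. Of the 7 called genes with a window, 5 had a match (71.4%). Of the 5 called higher with a window, 4 had one (80%), with Car9, tested only through ID8-M, counted in both. Eno2, with the smallest adjusted p of all members, had no match in its window, and Egln1, which was lower in ID8-M, had 2.

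Ndrg1, Eno2 and Pdk1 were higher in ID8-M, by 1.26, 1.20 and 0.87 on the log2 scale. Pfkm and Pfkl were slightly higher, and Egln1 and Car12 were slightly lower. Car9 was dim and detected only in ID8-M. Most enzymes of the glycolytic chain and both tested glucose transporters differed by less than the test could call. In all, 32 members were tested, meaning that 1 line or both had the probe detected on each of its 3 arrays. Of these 6 were called higher and 2 lower by limma with Benjamini-Hochberg adjustment over 16221 probes. Car9 is 1 of the 6 and was tested only through its detection in ID8-M. Among all 8933 tested genes 30.8% were called, 15.4% higher and 15.3% lower, against 25% of the members, a lower share in the members. Per probe, 28.4% of all tested probes were called. The arrays of the lines did not overlap for 13 of 32 members, 11 higher and 2 lower, beside 48.4% of all tested genes (23.3% higher, 25.1% lower). The members' share was thus above that of all genes for higher and below it for lower. No test of these shares was run. At least 2-fold, 2 members rose and 0 fell, beside 4.03% and 1.26% of all tested genes. With no background correction, the counts were 12 higher and 2 lower, which is 43.8% of members against 36.6% of all genes. The members' share was also above that of all genes with a neqc offset of 50 (37.5% against 34%), with trend and robust eBayes (40.6% against 36.6%), with the replicate block (28.1% against 26.1%) and with no filter on dim probes (17.9% against 12.1%). The order of these shares thus depended on the processing. As these are bulk samples, fewer cells with a transcript and less of it per cell cannot be told apart.

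**Figure D1:**
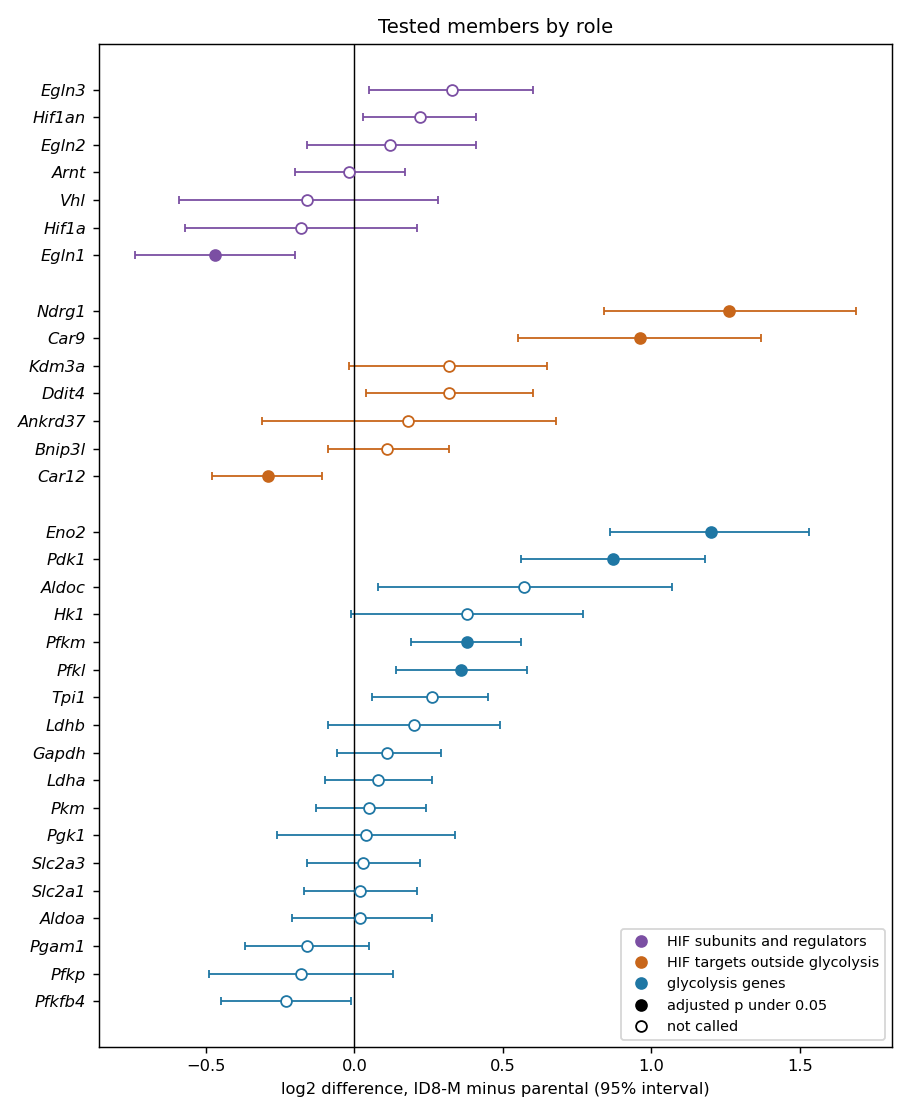
Log2 difference of each tested member (x axis, ID8-M minus parental, normalized log2 intensity) with its 95% interval, 1 row per gene grouped by role; filled points are called at an adjusted p under 0.05. Ndrg1 and Eno2 lie above 1, most glycolysis genes lie near 0, and the parental level of Car9 was below detection, so that its difference is that of the measured signals only.

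Among the HIF subunits and regulators only Egln1 was called. This gene encodes the main oxygen-sensing prolyl hydroxylase that limits HIF1 alpha. Its normalized log2 intensity was 6.76, 6.44 and 6.82 on parental arrays and 6.30, 6.23 and 6.08 on ID8-M arrays. Every ID8-M array lay below every parental array. The difference was −0.47 ± 0.12 (SE, log2; 1.38-fold higher in parental; limma adjusted p = 0.0201). A second tested probe of Egln1 differed by −0.87 ± 0.14 (limma adjusted p = 0.00243) and a dimmer probe by −0.26 ± 0.23, which was not called (limma adjusted p = 0.419). Egln1 lies on chromosome 8, whose 491 tested genes had a median difference of −0.31. With each chromosome's median removed, the Egln1 difference was −0.16 (limma adjusted p = 0.367). The call was also lost with no filter on dim probes. It was lost as well without parental 1, parental 3, ID8-M 2 or ID8-M 3 (limma adjusted p between 0.0513 and 0.0681).

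The other hydroxylases did not follow Egln1. Egln3, itself a classic HIF target, read 10.46, 10.15 and 10.51 in parental ID8 and 10.83, 10.57 and 10.69 in ID8-M. All ID8-M values were above all parental ones, by a small margin. The difference of 0.33 ± 0.12 was not called (limma adjusted p = 0.0757), but it was called with some other settings, among them no background correction (0.30, limma adjusted p = 0.0138). Its 2 dimmer probes were not tested, and 1 of them was detected on no array. Egln2 differed by 0.12 ± 0.12 (limma adjusted p = 0.483), with overlapping lines. Hif1an, the asparaginyl hydroxylase that keeps HIF from its coactivators, read 8.72, 8.84 and 8.79 in parental and 9.00, 8.92 and 9.07 in ID8-M. Its difference of 0.22 ± 0.08 was not called (limma adjusted p = 0.0857), although the lines did not overlap.

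For the HIF subunits themselves no difference was called. Hif1a, the regulated subunit of HIF1, read 7.61, 7.99 and 7.57 in parental and 7.83, 7.58 and 7.23 in ID8-M, with overlapping lines. The difference was −0.18 ± 0.17 (95% interval −0.57 to 0.21, limma adjusted p = 0.470). Arnt, the shared partner, was the most tightly measured of them, at −0.02 ± 0.08 with an interval of −0.20 to 0.17, and its 2 dimmer tested probes gave 0.02 and −0.05. Vhl, the substrate receptor of the ubiquitin ligase for HIF alpha, differed by −0.16 ± 0.19, with ID8-M 1 lowest at 6.97 and the other ID8-M arrays at 7.68 and 7.64. Epas1, which encodes HIF2 alpha, was detected on no array by either of its 2 probes.

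The HIF targets outside glycolysis held the member with the largest difference. Ndrg1, a stress-responsive gene strongly induced by hypoxia, read 7.68, 7.58 and 7.41 in parental ID8 and 9.27, 8.51 and 8.70 in ID8-M. The lines were far apart, and ID8-M 1 stood above the other ID8-M arrays. The difference was 1.26 ± 0.18 (2.4-fold, limma adjusted p = 0.00155), and the other probe of Ndrg1 gave 1.46 ± 0.12 (limma adjusted p = 5.4e-05). Ndrg1 lies on chromosome 15, whose 380 tested genes had a median difference of 0.36, and with that median removed it still differed by 0.90 and was called. The call held in all 16 alternatives, with differences between 0.90 and 1.46.

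The carbonic anhydrases, which hydrate carbon dioxide and set the pH around tumour cells, differed in opposite directions. Car9, a textbook HIF1 target, read 5.20, 4.65 and 4.96 in parental and 5.69, 5.78 and 6.24 in ID8-M. It was detected on every ID8-M array and on no parental array. It passed the detection filter only through ID8-M, so its call with that filter supports nothing. ID8-M exceeded parental ID8 at least 1.4-fold, a bound that sets the ID8-M mean against the lowest detected signals of the parental arrays. The signal was dim even in ID8-M, 2 other Car9 probes were detected on no array, and the difference of measured values was 0.96, or 0.32 without background correction. With no filter on dim probes the limma adjusted p was 0.0204, and with detection required on all arrays Car9 was not tested. Car12, another membrane-bound carbonic anhydrase, read 11.57, 11.53 and 11.55 in parental and 11.32, 11.27 and 11.17 in ID8-M, without overlap. Its difference was −0.29 ± 0.08 (limma adjusted p = 0.0266), and a dimmer probe gave −0.50 ± 0.09 (limma adjusted p = 0.00417). The call of the brightest probe was lost with the replicate block (limma adjusted p = 0.0584) and without any 1 of the arrays other than ID8-M 1 (limma adjusted p between 0.0544 and 0.0859), with differences of −0.25 to −0.31.

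**Figure D2:**
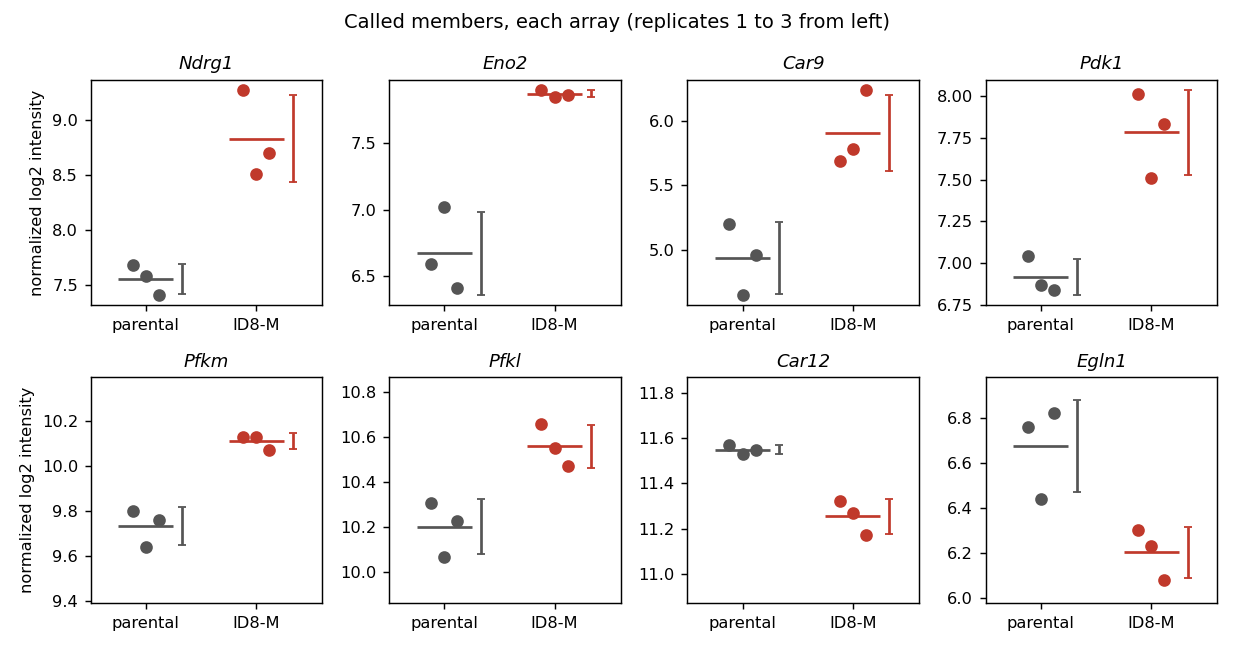
Normalized log2 intensity (y axis, with its own range in each panel) of the 8 called members on each array, with the mean as a line and the SD over 3 arrays as a bar. No parental value overlaps an ID8-M value in any panel, but these 8 were picked by their calls. Among all tested genes, called or not, 48.4% had no overlap. ID8-M 1 is the highest ID8-M array for Ndrg1, Eno2, Pdk1, Pfkl, Car12 and Egln1.

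Other hypoxia targets gave differences that did not pass. Ddit4, an inhibitor of mTORC1, read 9.33, 8.98 and 9.43 in parental and 9.51, 9.55 and 9.63 in ID8-M, without overlap. The difference was 0.32 ± 0.12 (limma adjusted p = 0.0869), and it was called with some other settings, among them no background correction (0.27, limma adjusted p = 0.0213). Kdm3a, a histone demethylase, differed by 0.32 ± 0.15 (limma adjusted p = 0.143), with 0.04 and 0.20 by its dimmer tested probes. Ankrd37 differed by 0.18 ± 0.22 and Bnip3l, a receptor for the removal of mitochondria, by 0.11 ± 0.09, both with overlapping lines. Bnip3, its close relative and another HIF target, Adm, which encodes the peptide adrenomedullin, and Higd1a, a mitochondrial protein, were each read by 1 probe and detected on no array.

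Glucose uptake showed no called difference. Slc2a1, the basal glucose transporter and a HIF target, read 11.12, 10.96 and 11.07 in parental and 11.13, 11.06 and 11.03 in ID8-M. The lines coincided, with a difference of 0.02 ± 0.08 and a 95% interval of −0.17 to 0.21. Slc2a3, a high-affinity glucose transporter, differed by 0.03 ± 0.08, with an interval of −0.16 to 0.22. The lactate transporters could not be compared. Slc16a1 was detected on no array, and the brightest probe of Slc16a3, the HIF-induced exporter, was detected on 2 arrays of each line, which kept it out of the test.

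In the preparatory steps of glycolysis, the phosphofructokinase genes, which encode the committed step, differed among themselves. Pfkm, the muscle-type subunit, read 9.80, 9.64 and 9.76 in parental and 10.13, 10.13 and 10.07 in ID8-M. The ID8-M arrays were tightly grouped above the parental ones. The difference was 0.38 ± 0.08 (1.3-fold, limma adjusted p = 0.0108), with 0.58 ± 0.12 by a second probe (limma adjusted p = 0.00796) and 0.30 ± 0.12 by the dimmest tested one (limma adjusted p = 0.0941). Pfkm shares chromosome 15 with Ndrg1, and with that chromosome's median removed its difference was 0.01 (limma adjusted p = 0.919). Pfkl, the liver-type subunit, read 10.31, 10.07 and 10.23 in parental and 10.66, 10.55 and 10.47 in ID8-M, again without overlap. Its difference was 0.36 ± 0.10 (limma adjusted p = 0.0259), but a much dimmer probe gave 0.11 ± 0.21 (limma adjusted p = 0.731). The Pfkl call was lost without parental 2, parental 3, ID8-M 1 or ID8-M 2 (limma adjusted p between 0.0534 and 0.0799), with differences of 0.29 to 0.37. Pfkp, the platelet-type subunit, differed by −0.18 ± 0.13 (limma adjusted p = 0.353) and its second probe by −0.29 ± 0.17.

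Hk1, the hexokinase bound to mitochondria, was split between its probes. The brighter probe read 6.78, 6.31 and 6.49 in parental and 7.16, 6.58 and 6.98 in ID8-M, with overlap, and its difference of 0.38 ± 0.17 was not called (limma adjusted p = 0.135). The other probe read 6.05, 6.30 and 6.47 in parental and 7.16, 7.03 and 7.01 in ID8-M, without overlap, and differed by 0.79 ± 0.12 (limma adjusted p = 0.00172). Both lay above 0, so the probes differed in size and call. Among the aldolases, Aldoa, the main isoenzyme, differed by 0.02 ± 0.10 (95% interval −0.21 to 0.26). Aldoc, the brain-type isoenzyme, read 6.67, 6.62 and 6.96 in parental and 7.66, 6.79 and 7.51 in ID8-M. On ID8-M 2 it lay inside the parental range, and its difference of 0.57 ± 0.22 was not called (limma adjusted p = 0.0833). Without ID8-M 2 it was 0.84 and was called (limma adjusted p = 0.00464). Tpi1, triosephosphate isomerase, read 13.80, 13.60 and 13.77 in parental and 13.97, 14.00 and 13.97 in ID8-M, without overlap. Its difference of 0.26 ± 0.09 was not called (limma adjusted p = 0.0578), but it was with some other settings, among them no background correction (0.25, limma adjusted p = 0.00839).

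In the later steps Eno2 stood apart from the rest. This gene encodes the neuron-type enolase, a glycolytic isoenzyme that also responds to hypoxia. It read 6.59, 7.02 and 6.41 in parental ID8 and 7.90, 7.85 and 7.86 in ID8-M. The ID8-M arrays were almost equal, and the parental arrays spread over a wider range well below them. The difference was 1.20 ± 0.15 (2.29-fold, limma adjusted p = 0.000601), and the call held in all 16 alternatives, with differences between 0.67 and 1.37. The other late enzymes differed far less. Gapdh differed by 0.11 ± 0.08 (95% interval −0.06 to 0.29), Ldha, the lactate dehydrogenase subunit that favours lactate, by 0.08 ± 0.08 (−0.10 to 0.26), and Pkm, pyruvate kinase, by 0.05 ± 0.08 (−0.13 to 0.24). All 3 intervals end below that of Eno2, which ran from 0.86 to 1.53. Ldhb, the subunit of the heart-type enzyme, differed by 0.20 ± 0.13, and Pgam1, a phosphoglycerate mutase, by −0.16 ± 0.09. Pgk1, a phosphoglycerate kinase, read 12.64, 13.01 and 12.56 in parental and 12.86, 12.64 and 12.83 in ID8-M, with a difference of 0.04 ± 0.13. Its dim second probe, detected on 1 ID8-M array, was tested only through parental ID8. That probe differed by −0.54 ± 0.13 (limma adjusted p = 0.0198), so the probes disagree, but with that filter its call supports nothing. A dim second probe of Pkm, also detected on 1 ID8-M array, gave −0.37 ± 0.16 and was not called (limma adjusted p = 0.114). Glycolytic genes such as Gapdh have processed pseudogenes in mouse, and whether probes also read these was not tested.

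Of the enzymes that regulate the flow, Pdk1 was called. It encodes a kinase that switches off pyruvate dehydrogenase and so keeps pyruvate from being turned into acetyl-CoA, and it is a HIF1 target. It read 7.04, 6.87 and 6.84 in parental and 8.01, 7.51 and 7.83 in ID8-M. Every ID8-M array was above every parental array, with ID8-M 2 the lowest of them. The difference was 0.87 ± 0.13 (1.82-fold, limma adjusted p = 0.00217), and it was called in all 16 alternatives, at 0.51 to 1.01. Pfkfb4, which sets the level of an activator of phosphofructokinase, differed by −0.23 ± 0.10 (limma adjusted p = 0.109). Pfkfb3, its better known relative, was read by 1 probe and detected on no array.

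Set side by side by role, 4 of 18 tested glycolysis genes were called higher and 0 lower, 2 of 7 HIF targets outside glycolysis higher and 1 lower, and 0 of 7 HIF subunits and regulators higher and 1 lower. These are 22.2%, 42.9% and 14.3% called, beside 30.8% of all tested genes (15.4% higher, 15.3% lower), and with so few genes a role no share is read as above or below it. The median log2 difference was 0.10 for glycolysis genes, 0.32 for the other HIF targets and −0.02 for the subunits and regulators, beside −0.03 for all 8933 tested genes. Car9, 1 of the 2 HIF targets called higher, was tested only through ID8-M, so its call supports nothing. Its difference of 0.96 also enters the median of 0.32. Glycolysis genes were above 0 in 15 of 18 cases, against 4159 of 8933 genes in all, but 14 of the 18 were not called. Within glycolysis, 3 of 14 enzymes, 1 of 2 tested regulatory enzymes and 0 of 2 transporters were called. The largest differences fell on Eno2, Pdk1 and the uncalled Aldoc, while the widely used isoenzymes Aldoa, Gapdh, Pkm and Ldha had differences of 0.02 to 0.11. No test of 1 role against another was run.

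**Figure D3:**
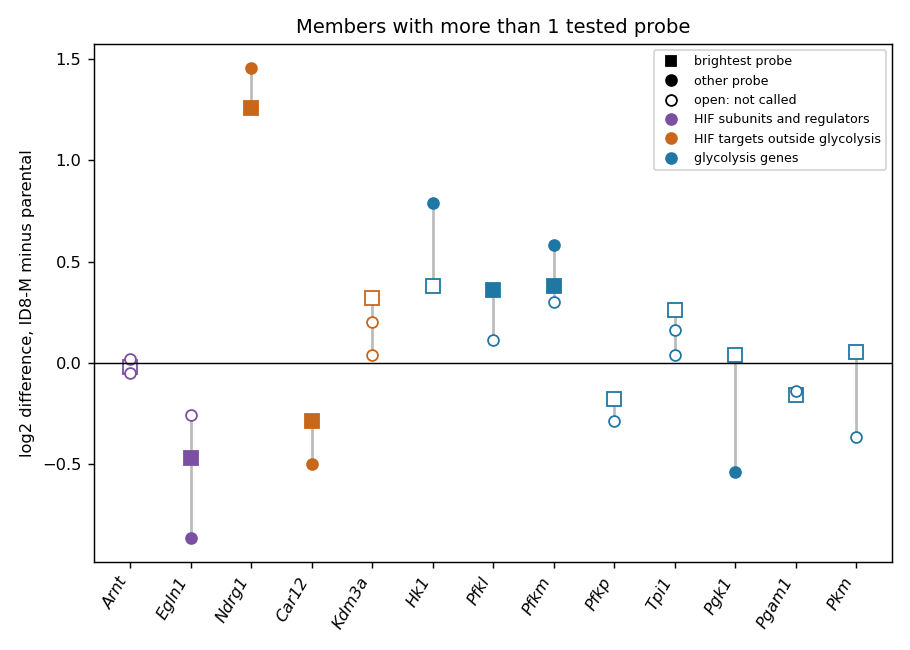
Log2 difference (y axis, ID8-M minus parental) of every tested probe of the members with more than 1, with squares for the brightest probe of a gene and filled symbols for an adjusted p under 0.05. The probes of Ndrg1 and of Car12 were all called in 1 direction, and those of Hk1, Pfkl, Pfkm and Egln1 were called in part. The probes of Pgk1, Pkm and Arnt lie on both sides of 0.

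Arrays of the same line differed in how often they were the highest or lowest for members. ID8-M 1 was the highest of the 3 ID8-M arrays for 24 of 32 members (75%), against 34.8% of all tested genes. Among glycolysis genes it was the highest for 16 of 18 (88.9%). In parental ID8, replicate 2 was the lowest for 17 of 32 members (53.1%), against 34.8% of all genes. ID8-M 2 was likewise the lowest of its line for 16 of 32 members (50%), against 29.8% of all genes. Parental 1 was the highest of its line for 14 of 32 members (43.8%), against 30.9%. Among the HIF subunits and regulators ID8-M 1 was also most often the highest, for 4 of 7, and it was the lowest for 2. Parental 2 was the lowest for 3 of them but also the highest for 4. The members' spread between arrays of 1 line was also somewhat wider, with a median SD of 0.16 on the log2 scale against 0.12 for all tested genes. Members share a library and are not independent of each other, so these are descriptions without a test. Of the 8 calls, Pfkl was lost without ID8-M 1, while Ndrg1, Eno2, Pdk1 and Pfkm were called without it. Car9 was called too, but it was again tested only through ID8-M. The counts without ID8-M 1 were 5 higher and 2 lower, and without parental 2 they were 5 higher and 1 lower. The median of the HIF targets outside glycolysis was 0.18 without ID8-M 1 and 0.19 without parental 2.

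**Figure D4:**
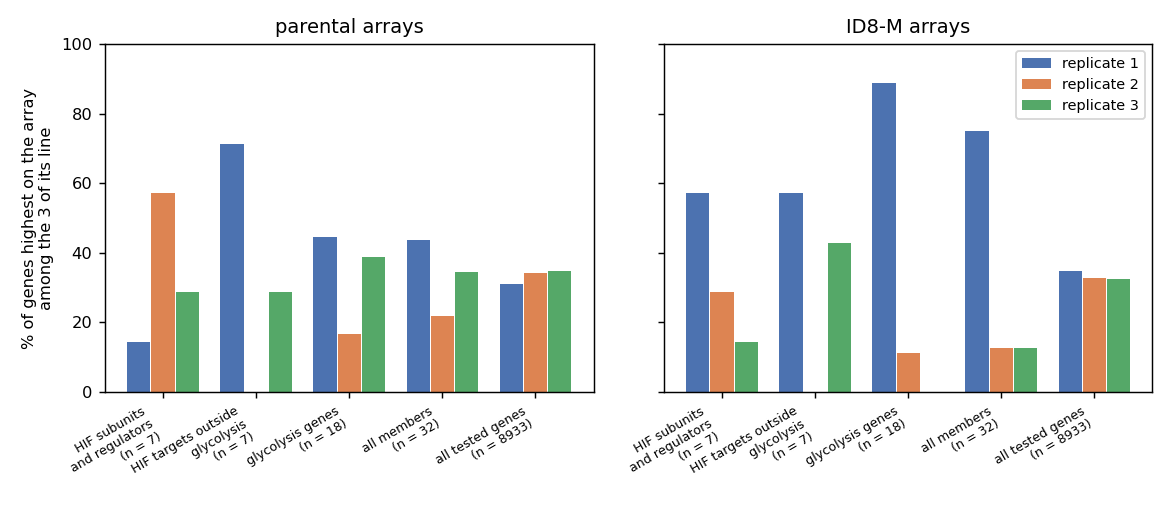
Share of genes in percent (y axis) for which an array was the highest of the 3 of its line, for each role, all members and all tested genes, with parental arrays on the left and ID8-M arrays on the right. For all tested genes the arrays have similar shares, while ID8-M 1 was the highest for 88.9% of glycolysis genes.

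A wider list of 78 genes of hypoxia, pyruvate use, the pentose phosphate pathway and glycogen held calls in both directions. Of its 48 tested genes, 8 were called higher (16.7%) and 11 lower (22.9%), beside 15.4% and 15.3% of all tested genes, and the median log2 difference was −0.05. The rises included Gpd1 and Ppp1r3c, tested only through ID8-M, and the falls Bpgm, tested only through parental ID8. With that filter the calls of Gpd1, Ppp1r3c and Bpgm support nothing. The largest rise was Vldlr, a lipoprotein receptor, which read 7.32, 7.41 and 7.27 in parental and 9.09, 8.78 and 8.74 in ID8-M, without overlap (1.54 ± 0.11, limma adjusted p = 2.5e-05). P4ha2, a collagen prolyl hydroxylase, differed by 1.24 ± 0.09, Vegfa, the angiogenic factor, by 0.73 ± 0.12 and Angptl4, an inhibitor of lipoprotein lipase, by 0.71 ± 0.10. All 3 can be induced by hypoxia and were called. Gpd1, which links glycolysis to glycerol phosphate, was detected on no parental array, and its level in ID8-M was at least 1.61-fold that of parental ID8. It lies on chromosome 15, and removal of that chromosome's median left a difference of 0.48 without a call (limma adjusted p = 0.0669).

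The falls of the wider list included HIF-responsive genes as well. Pdk4, a kinase with the same target as Pdk1 that is induced by fasting and fatty acids, read 9.37, 9.64 and 9.37 in parental and 7.84, 7.67 and 7.57 in ID8-M. All ID8-M arrays lay far below the parental ones (−1.77 ± 0.11, limma adjusted p = 1.3e-05), so Pdk1 and Pdk4 were called in opposite directions. After removal of each chromosome's median, 7 genes of the wider list were called higher and 8 lower. Edn1, which encodes the vasoconstrictor endothelin 1, differed by −1.20 ± 0.11 and Lox, a collagen crosslinking enzyme, by −1.02 ± 0.11, both called and both known hypoxia targets. Rpia, an enzyme of the pentose phosphate pathway, differed by −0.94 ± 0.09, and Bpgm, which makes 2,3-bisphosphoglycerate, by −0.57 ± 0.10, with only 1 ID8-M array above detection.

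**Figure D5:**
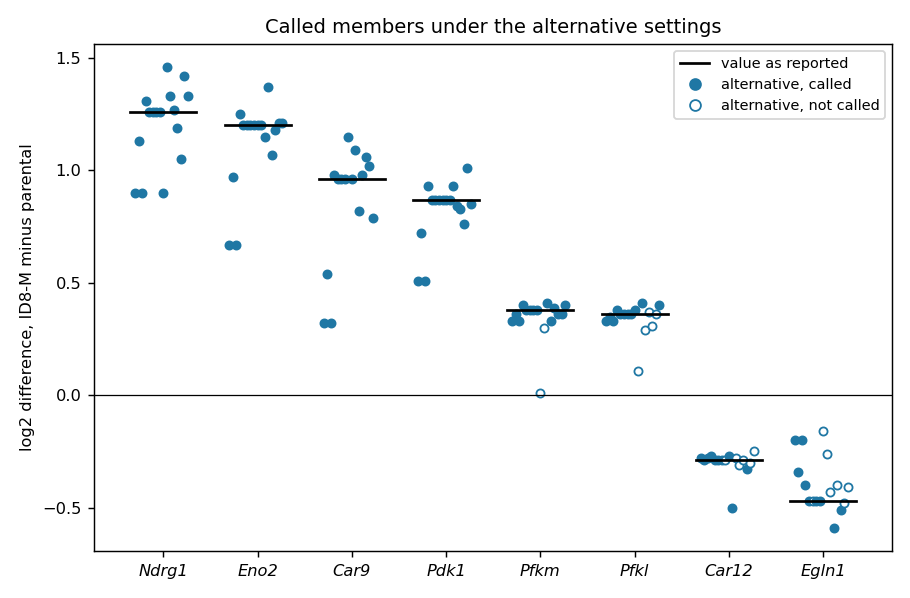
Log2 difference (y axis, ID8-M minus parental) of the 8 called members as reported (black lines) and under each alternative setting (points, open where the call was lost). Ndrg1, Eno2 and Pdk1 were called under each setting, while Pfkm, Pfkl, Car12 and Egln1 each lost the call under at least 2. Car9 was called under each setting that gave a value, but with a detection filter it was tested only through ID8-M.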

How the data were processed

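The authors deposited 2 tables of the same 6 bead arrays. Per the file headers, the scanner table gives for each probe and array the mean bead intensity, a bead count, the standard error over beads as a signal in the same unit, and a detection p-value. Its deposited intensities are linear and, judged from their values, neither background corrected nor normalized. The other deposited table holds intensities that keep each array's rank order and share 1 distribution, as after quantile normalization. No source used here names the scanner software.

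Scanner intensities were corrected and quantile normalized with neqc (limma 3.58.1, R 4.3.3; background from detection p-values, offset 16) and fitted with lmFit and eBayes, two-sided, with 4 residual degrees of freedom, all 6 arrays and no covariate. A gene stands by its brightest tested probe. Of 45281 probes 34885 carried 1 symbol, 18 several and 10378 none, and 34807 were matched to RefSeq (GRCm38.p6). For a probe undetected in a line, the bound uses, per array, the higher of its own signal and the lowest detected one. Confidence intervals (95%) come from the moderated fit. The procedure was tested on simulated data. Named were all members, and up to 5 called genes per direction of the wider list, with Ppp1r3c added because of its detection. Members and lists were chosen with earlier results of these data known. The comparison of Egln proteins that had been planned was not made here.

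Over all tested probes, deviations from the line means correlated at 0.04, −0.09 and 0.01 between same-numbered arrays. Among members, replicate 1 was most often the highest and replicate 2 most often the lowest in both lines. Whether same-numbered arrays were prepared as pairs is not settled by these values.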

Additional observations from a re-analysis of the deposited data

How the results depend on the processing

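Under 16 alternatives, Ndrg1, Eno2 and Pdk1 kept direction and call in all. Car9 kept them in the 15 that gave a value. Except with no filter on dim probes, it was tested there only through ID8-M, so those calls support nothing. Over all members, 446 comparisons kept direction and call, 28 gained a call, 20 lost one and 15 turned their sign, all among members not called as reported. The authors' deposited table lay within 0.024 (log2) of quantile normalization with no background correction at every value. These 2 settings are thus not independent, although the counts over the 16 alternatives include both. The count of members called higher was 6 as reported, 12 with no background correction, 12 with the authors' deposited normalized table, 10 with a neqc offset of 50 and 11 with trend and robust eBayes. The share of all genes called also rose there, to between 34% and 36.6%. The members' share was above that of all genes in 6 of the 16 alternatives and below it in 10. The count called lower was 2 as reported and 1 with no filter on dim probes, with the chromosome median removed and with the replicate block, where 8 were higher. Leaving out 1 array gave 0 to 2 lower and 5 to 7 higher, with fewer samples in the fit. The wider list gave 7 to 10 lower then, against 11.

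The median of HIF subunits and regulators was 0.03 with cyclic loess, −0.05 with the dimmest tested probe of each gene, and −0.05 to 0.07 without 1 array. That of HIF targets outside glycolysis was 0.15 with no filter, 0.20 with the dimmest probes and 0.18 to 0.36 without 1 array. For glycolysis genes it was 0.15 with the chromosome median removed. With the dimmest probe Pgk1 was −0.54 and Pkm −0.37, and with cyclic loess Arnt was 0.03. Without 1 array the ranges were −0.04 to 0.11 for Aldoa, −0.06 to 0.35 for Ankrd37, −0.05 to 0.02 for Arnt, −0.05 to 0.17 for Pgk1, −0.02 to 0.06 for Slc2a1, −0.01 to 0.08 for Slc2a3 and −0.28 to 0.07 for Vhl. The causes were not tested. Signal near background limits Car9, Hk1, Ldhb, Pfkfb4, Ankrd37 and Egln1, and 6 arrays limit the precision of all values. The parental means of Eno2 (6.67), Aldoc (6.75) and Pdk1 (6.91) were low as well. Eno2 and Pdk1 each rest on 1 tested probe, and the other Pdk1 probe was detected on no array.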
